A study of Homo sapiens with 9 samples.

Results

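Ribosome biogenesis is the making of ribosomes in the nucleolus, and the factors measured here are 36 genes of that pathway that are commonly counted among the targets of the transcription factor MYC. The 36 genes were listed by name, and every probe set whose annotation gave exactly 1 gene symbol equal to a listed name was taken as a measurement of that gene. On this rule 58 probe sets measured 30 of the 36 genes, among 19775 genes measured in all. NOP56, BOP1, DKC1 and PPAN were found on the arrays only on probe sets annotated with several symbols, GNL3 and DDX18 on none of the annotated probe sets, and these genes were not analysed here.

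The cells were Huh7, an established line from a human hepatocellular carcinoma, treated the day after seeding. Total RNA was hybridised to 9 Affymetrix expression arrays. Of these, 3 arrays carried cells given PBS, the solvent, for 48 h, 3 carried cells given PGG at 0.1 mg/mL for 6 h, and 3 carried cells given PGG at 0.1 mg/mL for 48 h. PGG is penta-O-galloyl-glucose, a plant gallotannin whose effect the study examined on MYC and on the promoter of the liver enzyme gene GNMT. No genotype or line other than Huh7 was used here. The sample titles place the PBS arrays at 48 h, whereas their descriptions speak of 0 hours of PGG, and no PBS array at 6 h was analysed here. At 6 h, PGG and time in culture therefore cannot be told apart. The same holds between 6 h and 48 h of PGG for length of exposure and time in culture.

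Making a ribosome starts with the transcription of a long ribosomal RNA precursor by RNA polymerase I. Small nucleolar ribonucleoproteins (snoRNPs) then modify that precursor, box C/D particles by methylation and box H/ACA particles by pseudouridylation. Large assemblies of processing factors cut and fold it into the precursors of the small and the large subunit, which are trimmed by nucleases such as the RNA exosome and exported to the cytoplasm. MYC is known to raise the expression of polymerase I subunits and of many of these factors in growing cells, and liver cancers often carry high MYC activity. As a textbook feature, MYC binds the E-box, CACGTG, often close to transcription starts.

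The promoters of these genes are shown first because the E-box is the feature by which MYC recognises DNA. The search covered 250 bases before and 50 bases after each annotated start in the RefSeq promoter sequences of build GRCh38.p14. CACGTG reads the same on both strands, so a single search covers both. A promoter entry was found for 29 of the 36 listed genes, and 17 of the 29 held the motif (58.62%). Among all 27305 genes with a promoter entry, 2396 held it (8.77%). The windows below are 30 bases from 9 of these genes, written 5′ to 3′ on the gene's own strand with the motif in capitals. They were chosen to show 8 genes whose RNA was lower after 48 h of PGG and GNL2, whose RNA was higher.
UTP20: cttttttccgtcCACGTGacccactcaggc
MRTO4: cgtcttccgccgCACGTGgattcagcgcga
BYSL: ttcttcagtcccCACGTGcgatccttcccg
NOP14: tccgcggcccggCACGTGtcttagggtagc
MYBBP1A: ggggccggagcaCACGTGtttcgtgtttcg
WDR43: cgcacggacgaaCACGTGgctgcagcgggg
RRP9: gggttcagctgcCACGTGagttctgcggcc
DDX21: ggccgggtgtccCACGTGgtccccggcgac
GNL2: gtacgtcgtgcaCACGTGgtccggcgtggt

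These windows lie at chr12:101280083-101280112 on the plus strand for UTP20, chr1:19251807-19251836 plus for MRTO4, chr6:41921515-41921544 plus for BYSL, chr4:2963374-2963403 minus for NOP14 and chr17:4555340-4555369 minus for MYBBP1A. They lie at chr2:28894658-28894687 plus for WDR43, chr3:51941892-51941921 minus for RRP9, chr10:68956604-68956633 plus for DDX21 and chr1:37595917-37595946 minus for GNL2. A match of these letters is a description of the sequence and not a measured binding site.

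All values that follow are deposited log2 signals after RMA, a processing that gives each array the same overall distribution, so a difference is relative to the rest of the array. A gene is represented by its probe set of highest mean. Differences were tested with limma, adjusted by the Benjamini-Hochberg method over all 54613 probe sets, and a gene is said to have fallen or risen where the adjusted p was under 0.05. Each group holds 3 arrays, labelled as biological replicates with no word on separate cultures, so the p-values measure the spread between these arrays. The arrays carry RNA of whole cultures, in which fewer cells with a transcript and less of it per cell cannot be told apart.

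The 9 arrays were close to each other in overall level, with array medians from 5.17 to 5.20. Of the hepatocyte markers, 8 of 9 were measured, with gene means from 7.91 to 13.48, whereas the 3 leukocyte markers had gene means from 3.34 to 5.53, the 3 endothelial markers from 3.28 to 6.22 and the 3 fibroblast markers from 5.20 to 7.37. The 3′ minus 5′ log2 difference of the ACTB control probe sets, a sign of RNA integrity, ran from 0.96 to 1.57 on the PBS arrays and from 1.13 to 1.23 at 6 h. On the 3 arrays at 48 h it was 2.14, 4.03 and 2.67, with the highest value on replicate 2, which also had the highest GAPDH value of 1.83 against 0.13 to 0.39 on the other arrays. RNA integrity thus moved with the 48 h group, and its part in the 48 h results was not tested.

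MYC itself was lower at both times. Its log2 signal was 11.78, 11.60 and 11.57 on the PBS arrays, 9.83, 9.84 and 9.92 at 6 h and 9.74, 9.97 and 9.67 at 48 h. Every PGG array lay below every PBS array, and the PGG groups overlapped with each other. MYC fell by 1.79 at 6 h (SE 0.09, adjusted p = 2.6e-07), to 29.0% of the PBS level, and fell by 1.86 at 48 h (SE 0.09, adjusted p = 3.4e-08), to 27.6%. The difference between the times was -0.07 with a 95% interval from -0.27 to 0.13.

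At 6 h of PGG most changes of the ribosome biogenesis genes were small falls, and POLR1B had the largest. Of the 30 genes measured, 15 fell, against 15.5% of all genes tested, and 1 rose (NOB1), against 15.5% of all genes. The median difference of the 30 genes was -0.23, or 85.1% of the PBS level, and the median of all genes was 0.01. At the study's own threshold, an adjusted p under 0.005 with a log2 difference beyond 1.5 (taken here as log2), POLR1B was the 1 gene of the list that was lower, against 0.541% of all genes.

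At 48 h the falls were more numerous and deeper. Of the 30 genes, 23 fell, against 23.2% of all genes tested, and 2 rose (NOB1 and GNL2), against 22.9%. The median difference was -0.85, or 55.5% of the PBS level, with the middle of the list between -1.5 and -0.28, whereas the median of all genes was -0.02. At the study's threshold 8 genes were lower (RRS1, UTP20, MRTO4, NOP16, POLR1A, NIP7, WDR12 and NOP2), against 2.12% of all genes. This count takes each gene by its probe set of highest mean, on which POLR1B stood at -0.92. The study applied its threshold to each probe set and listed POLR1B as lower at both times. It did so on another probe set, which here lay at the limit at 48 h (-1.5, adjusted p = 1.2e-08). WDR12 and NOP2, both at -1.52, lay just past the limit of 1.5, and BYSL at -1.44 lay just short of it. The methods' t-test gave 21 lower genes at 48 h after Benjamini-Hochberg adjustment, against 3627 of all 19775 genes. At the threshold of the study it gave 8, against 372 of all genes. Without PGG 48 h replicate 2, the array with the highest control probe difference, 22 genes were lower and 2 higher.

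**Figure D1:**
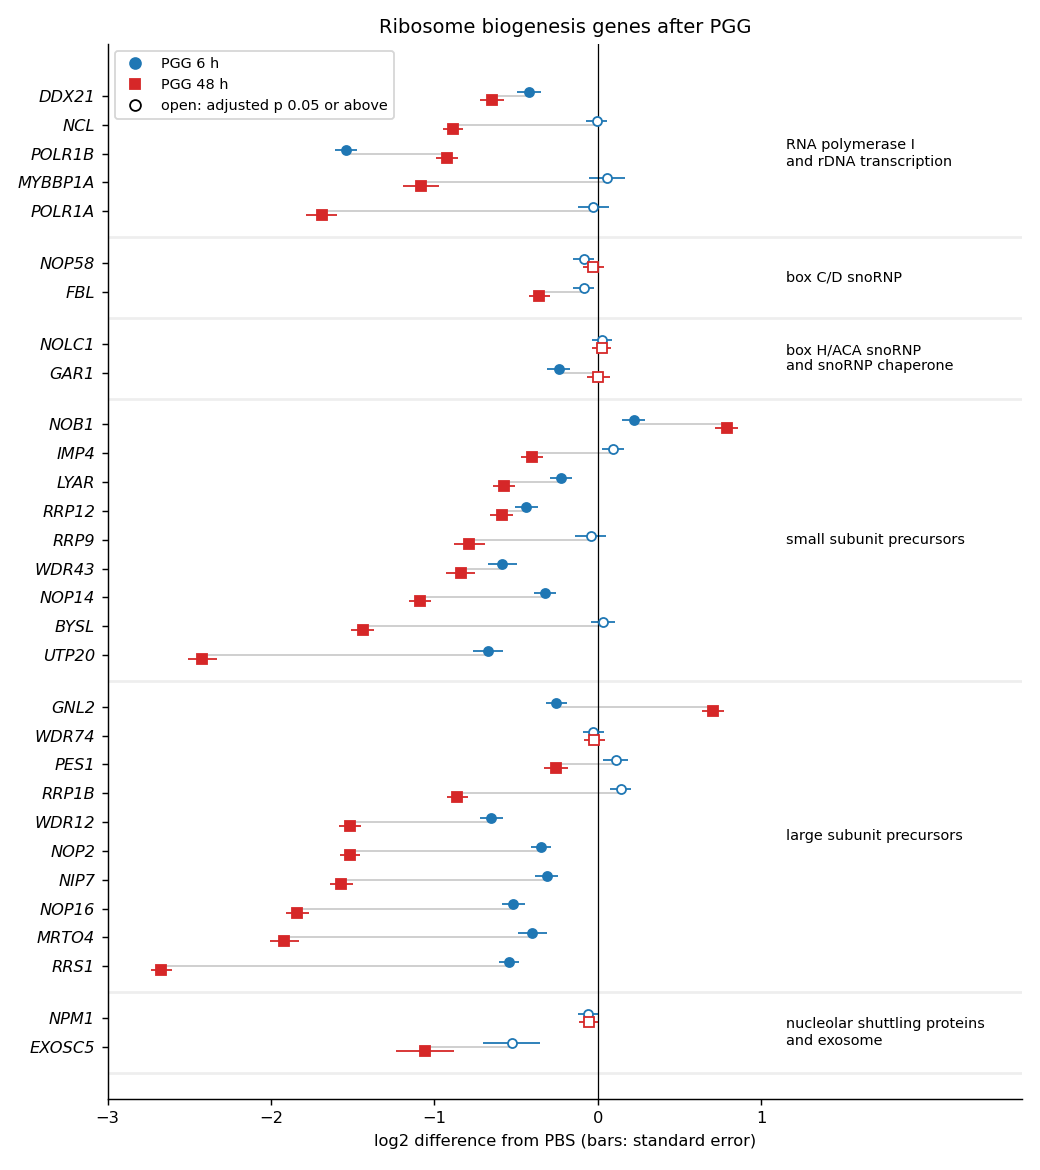
Log2 difference from PBS (x axis) for each of the 30 measured genes, grouped by role, at 6 h (circles) and 48 h (squares) of PGG, with standard errors as bars and open symbols for adjusted p of 0.05 or above. Most squares lie to the left of the circle of the same gene. Among the genes that passed the test between the times, POLR1B, GAR1, NOB1 and GNL2 are the reverse. NOB1 and GNL2 lie to the right of 0 at 48 h.

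The order of events over time fell into a few patterns. Falls at both times were seen for 13 genes (POLR1B, DDX21, NOP14, RRP12, WDR43, UTP20, LYAR, WDR12, NOP2, NOP16, RRS1, MRTO4 and NIP7). A fall that passed the test at 48 h and not at 6 h was seen for 10 genes (POLR1A, MYBBP1A, NCL, FBL, RRP9, IMP4, BYSL, PES1, RRP1B and EXOSC5). GAR1 passed as lower at 6 h and did not pass at 48 h, GNL2 was lower at 6 h and higher at 48 h, NOB1 was higher at both times, and NOP58, NOLC1, WDR74 and NPM1 passed at neither.

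The step from 6 h to 48 h was tested directly, which also tests whether the differences from the shared PBS arrays differ between the times. Length of PGG exposure and time in culture cannot be told apart in this step. Of the 30 genes, 21 were lower at 48 h than at 6 h, against 22.0% of all genes, and 4 were higher (POLR1B, GAR1, NOB1 and GNL2), against 22.4%. The median step was -0.51, or 70.1% of the 6 h level, and the median of all genes was -0.01. MYC had the step of -0.07 given above.

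**Figure D2:**
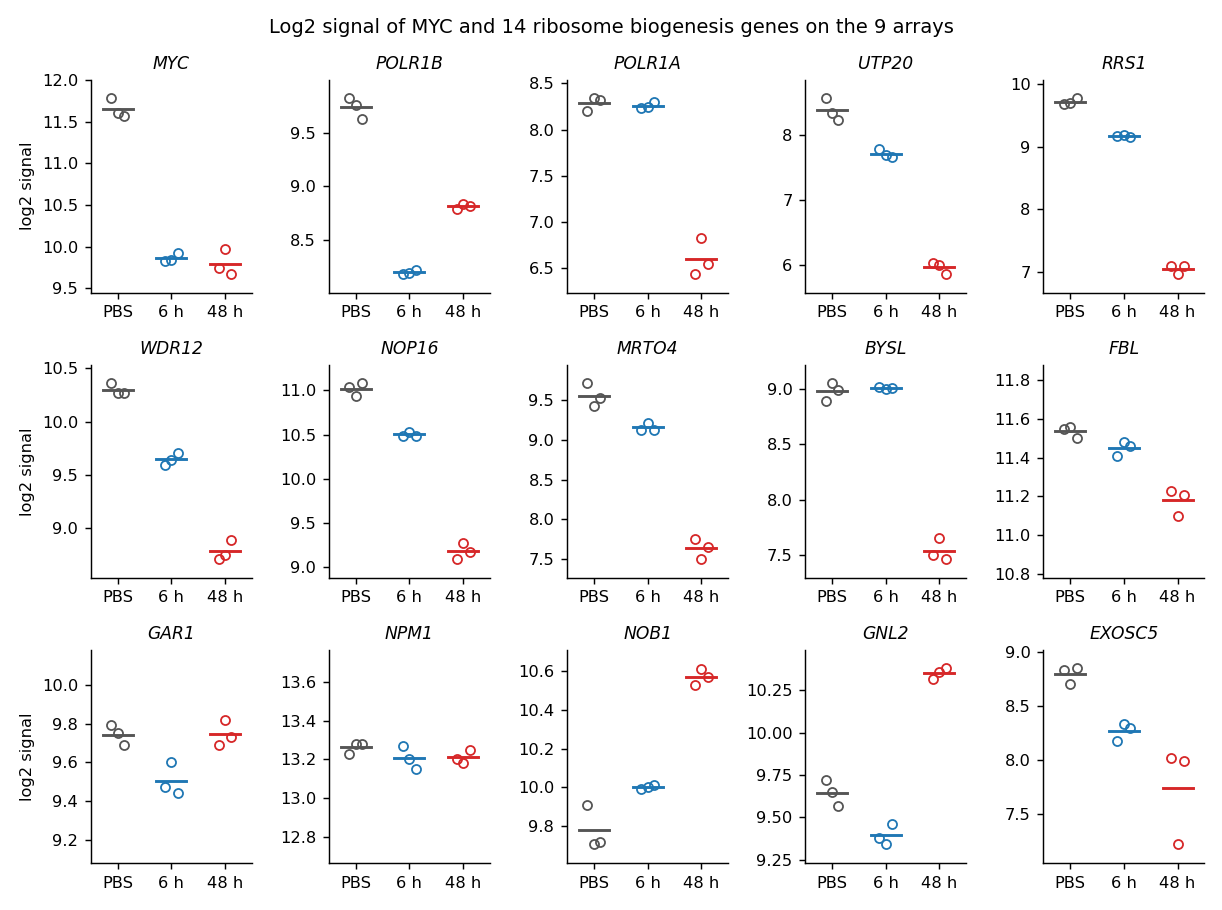
Log2 signal (y axis, a separate range for each gene) on each of the 9 arrays for MYC and 14 ribosome biogenesis genes, with circles for arrays and bars for the mean of 3. MYC and POLR1B were lowest or near lowest by 6 h, UTP20, RRS1, WDR12, NOP16 and MRTO4 stepped down at both times, POLR1A and BYSL stepped down after 6 h, and NOB1 and GNL2 ended above PBS.

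Among the genes of RNA polymerase I and ribosomal DNA transcription, the polymerase's largest subunits went down at different times. POLR1B, which encodes a large catalytic core subunit, read 9.82, 9.76 and 9.63 with PBS, 8.18, 8.19 and 8.22 at 6 h and 8.79, 8.83 and 8.82 at 48 h. The 3 groups did not overlap, with 6 h the lowest. POLR1B fell by 1.54 at 6 h (SE 0.07, adjusted p = 1.0e-07), to 34.4% of PBS, and by 0.92 at 48 h (SE 0.07, adjusted p = 6.1e-07), to 52.7%. Its rise from 6 h to 48 h was 0.62 (SE 0.07, adjusted p = 1.8e-05), and 0.25 with the mean of its probe sets. On its other probe sets the step was smaller, at 0.19 (adjusted p = 0.032), 0.13 (adjusted p = 0.34) and 0.06 (adjusted p = 0.75). Only the first of these passed the test.

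POLR1A, the largest subunit of the same enzyme, took the other course. It read 8.20, 8.34 and 8.32 with PBS, 8.23, 8.25 and 8.30 at 6 h and 6.43, 6.82 and 6.54 at 48 h. The PBS and 6 h arrays overlapped, and the 48 h arrays lay below all of them. The difference at 6 h was -0.03, with a 95% interval from -0.24 to 0.18, and POLR1A fell by 1.69 at 48 h (SE 0.10, adjusted p = 9.9e-08), to 31.0% of PBS. Its other probe sets had differences of 0.15 (adjusted p = 0.48) and -0.31 (adjusted p = 0.054) at 6 h, and neither passed the test.

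The other genes of this group were all lower at 48 h. MYBBP1A, a nucleolar MYB-binding protein, fell by 1.08 at 48 h (SE 0.11) and read 7.89, 8.35 and 8.30 with PBS against 7.09, 7.01 and 7.2 at 48 h. NCL, nucleolin, an abundant nucleolar RNA-binding protein, fell by 0.89 at 48 h (SE 0.06), from 11.91, 11.89 and 11.85 to 10.92, 11.07 and 11.00. DDX21, a nucleolar RNA helicase, fell by 0.42 at 6 h (SE 0.07) and by 0.65 at 48 h (SE 0.07). Neither MYBBP1A (0.06) nor NCL (-0.01) passed the test at 6 h. The PBS and 48 h arrays of MYBBP1A and NCL did not overlap.

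FBL, NOP58, GAR1 and NOLC1, the measured genes grouped here under snoRNPs, had small differences, from -0.36 to 0.02 at 48 h. RRP9, also a snoRNP protein, is given below with the small subunit factors and fell by 0.79 at 48 h. FBL, fibrillarin, the methyltransferase of box C/D particles, read 11.55, 11.56 and 11.50 with PBS, 11.41, 11.48 and 11.46 at 6 h and 11.23, 11.10 and 11.21 at 48 h. All 48 h arrays lay below all others, though by little. FBL fell by 0.36 at 48 h (SE 0.06, adjusted p = 7.5e-04), to 78.1% of PBS, and its difference at 6 h was -0.09 with an interval from -0.23 to 0.05. NOP58, another core protein of the same particles, had differences of -0.09 at 6 h and -0.03 at 48 h, with an interval from -0.17 to 0.12 at 48 h.

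GAR1, a core protein of box H/ACA particles, had a shallow dip. It read 9.79, 9.75 and 9.69 with PBS, 9.47, 9.60 and 9.44 at 6 h and 9.69, 9.82 and 9.73 at 48 h. The 6 h arrays lay below both other groups, which overlapped. GAR1 fell by 0.24 at 6 h (SE 0.07, adjusted p = 0.027), a call lost with the methods' t-test (adjusted p = 0.063) and when any of 4 arrays was left out (PBS replicates 1 and 2, PGG 6 h replicates 1 and 3). At 48 h its difference was 0.00, with an interval from -0.15 to 0.16. NOLC1, a chaperone of snoRNPs, had differences of 0.03 and 0.02, with an interval from -0.11 to 0.16 at 48 h.

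The factors of small subunit precursors fell widely, with 5 of 9 lower at 6 h and 8 of 9 at 48 h. Of all genes, 15.5% were lower at 6 h and 23.2% at 48 h. UTP20, a very large scaffold protein of the small subunit processome, read 8.57, 8.34 and 8.24 with PBS, 7.79, 7.69 and 7.66 at 6 h and 6.03, 6.00 and 5.86 at 48 h. The 3 groups did not overlap and ran downward with time. UTP20 fell by 0.67 at 6 h (SE 0.09, adjusted p = 2.5e-04) and fell by 2.42 at 48 h (SE 0.09, adjusted p = 6.1e-09), the latter to 18.7% of PBS, a 5.35-fold difference.

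BYSL, bystin, which acts in small subunit maturation, changed after 6 h. It read 8.89, 9.05 and 8.99 with PBS, 9.02, 9.0 and 9.01 at 6 h and 7.5, 7.65 and 7.46 at 48 h, with the 48 h arrays below all others. BYSL fell by 1.44 at 48 h (SE 0.07), to 36.9% of PBS, and its difference at 6 h was 0.03 with an interval from -0.13 to 0.19. RRP9, a protein of the snoRNP that guides early cuts of the precursor, fell by 0.79 at 48 h (SE 0.10), and IMP4, which belongs to the same machinery, by 0.40 (SE 0.07). Their differences at 6 h, -0.04 and 0.09, did not pass the test.

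NOP14, a processome component, fell by 0.32 at 6 h (SE 0.07) and by 1.09 at 48 h (SE 0.07). It read 8.99, 9.06 and 9.07 with PBS, 8.69, 8.73 and 8.73 at 6 h and 7.89, 8.06 and 7.90 at 48 h, so that the groups did not overlap. WDR43, which joins the processome early, fell by 0.58 at 6 h and by 0.84 at 48 h (SE 0.09 for both). RRP12, an export factor of subunit precursors, fell by 0.44 and by 0.59 (SE 0.07 for both), the former not called with the mean of its probe sets (-0.13, adjusted p = 0.23). LYAR, a nucleolar protein of precursor processing, fell by 0.23 at 6 h (adjusted p = 0.032) and by 0.57 at 48 h (SE 0.07 for both). The 6 h call of LYAR was lost with the replicate number as a block (adjusted p = 0.055) and when any of 5 arrays was left out (the 3 PBS replicates, PGG 6 h replicates 2 and 3).

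NOB1 was the exception of the small subunit group. NOB1 is the endonuclease that makes a late cut in the small subunit ribosomal RNA. It read 9.91, 9.71 and 9.72 with PBS, 9.99, 10.00 and 10.01 at 6 h and 10.53, 10.61 and 10.57 at 48 h. The groups did not overlap, and the 48 h arrays were highest. NOB1 rose by 0.79 at 48 h (SE 0.07, adjusted p = 3.4e-06), to 173% of PBS. Its rise at 6 h, 0.22 (SE 0.07, adjusted p = 0.041), was lost when any of 6 arrays was left out, with the replicate block, with the methods' t-test and in a fit of the compared groups alone.

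The factors of large subunit precursors included the largest fall of the list, and 7 of 10 were lower at 6 h and 8 of 10 at 48 h. The shares of all genes that were lower were 15.5% at 6 h and 23.2% at 48 h. RRS1, a regulator needed for assembly of the large subunit, read 9.68, 9.70 and 9.78 with PBS, 9.18, 9.19 and 9.16 at 6 h and 7.09, 6.96 and 7.09 at 48 h. The arrays of each group lay close together and the groups were far apart. RRS1 fell by 0.54 at 6 h (SE 0.06, adjusted p = 9.4e-05) and by 2.67 at 48 h (SE 0.06, adjusted p = 6.3e-10), to 15.7% of PBS, a 6.38-fold difference.

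WDR12, PES1 and BOP1 form a complex needed for processing of the large subunit RNA, and its measured members moved by different amounts. WDR12 read 10.36, 10.27 and 10.27 with PBS, 9.59, 9.64 and 9.71 at 6 h and 8.71, 8.75 and 8.89 at 48 h, with no overlap between groups. WDR12 fell by 0.65 at 6 h (SE 0.07, adjusted p = 4.9e-05) and by 1.52 at 48 h (SE 0.07, adjusted p = 2.6e-08), to 34.9% of PBS. PES1 read 8.97, 9.02 and 8.98 with PBS and 8.83, 8.58 and 8.79 at 48 h, with no overlap, and fell by 0.26 (SE 0.08, adjusted p = 0.018). The call of PES1 was lost with the methods' t-test (adjusted p = 0.093), with the mean of its probe sets (adjusted p = 0.21), without PBS replicate 2 (adjusted p = 0.057) and without PGG 48 h replicate 2 (adjusted p = 0.051). The other probe set in that mean was dim, reading from 3.57 to 3.99 over the 9 arrays.

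MRTO4, which keeps the place of a ribosomal stalk protein during assembly, fell by 0.40 at 6 h and fell by 1.92 at 48 h (SE 0.09 for both). It read 9.71, 9.43 and 9.53 with PBS and 7.76, 7.5 and 7.65 at 48 h. The other probe set of MRTO4 fell by 1.88 at 48 h. Its difference at 6 h, -0.18 (adjusted p = 0.19), did not pass the test. NOP16, a nucleolar assembly factor, fell by 0.52 at 6 h and by 1.84 at 48 h (SE 0.07 for both), from 11.04, 10.94 and 11.08 to 9.09, 9.28 and 9.17. The PBS and 48 h arrays of MRTO4 and NOP16 did not overlap.

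NIP7, another assembly factor, fell by 0.31 at 6 h and by 1.57 at 48 h (SE 0.07 for both). NOP2, a cytosine methyltransferase of large subunit RNA, fell by 0.35 and by 1.52 (SE 0.06 for both). RRP1B, a nucleolar processing factor, fell by 0.86 at 48 h (SE 0.06) and had a difference of 0.14 at 6 h, which did not pass the test. WDR74, which acts on late nucleolar precursors, had differences of -0.03 and -0.02, with an interval from -0.16 to 0.12 at 48 h.

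GNL2, a GTPase needed for export of large subunit precursors from the nucleolus, turned from lower to higher. It read 9.72, 9.65 and 9.57 with PBS, 9.38, 9.34 and 9.46 at 6 h and 10.32, 10.36 and 10.38 at 48 h, and no groups overlapped. GNL2 fell by 0.25 at 6 h (SE 0.07, adjusted p = 0.015), a call lost with the methods' t-test and without PBS replicate 1 or PGG 6 h replicates 1 or 2. It rose by 0.71 at 48 h (SE 0.07, adjusted p = 5.3e-06), to 163% of PBS. The step between the times was 0.96 (SE 0.07, adjusted p = 5.5e-07).

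EXOSC5, a core subunit of the RNA exosome, had the largest standard error of the list. It read 8.84, 8.71 and 8.85 with PBS, 8.18, 8.34 and 8.30 at 6 h and 8.02, 7.22 and 7.99 at 48 h. All PGG arrays lay below all PBS arrays, and the lowest was PGG 48 h replicate 2, the array with the highest control probe difference. EXOSC5 fell by 1.06 at 48 h (SE 0.18, adjusted p = 5.0e-04), and by 0.80 without that array (adjusted p = 1.5e-05). Its call at 48 h was lost with the methods' t-test (adjusted p = 0.057). At 6 h its difference of -0.53 (SE 0.18) missed the threshold with an adjusted p of 0.051. It passed in 9 of the 11 alternative settings, among them the replicate block (adjusted p = 0.040) and the methods' t-test (adjusted p = 0.013), and without PGG 48 h replicate 2 (adjusted p = 2.7e-04).

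NPM1, nucleophosmin, a very abundant nucleolar shuttling protein, depended on the probe set. The brightest of its 3 probe sets read 13.23, 13.28 and 13.28 with PBS and 13.20, 13.18 and 13.25 at 48 h, which overlap, with a difference of -0.05 and an interval from -0.19 to 0.08. Another had a difference of -0.24 at 48 h (adjusted p = 0.012). The remaining probe set read 11.98, 12.06 and 12.04 with PBS and 10.73, 11.03 and 10.83 at 48 h, with no overlap, and fell by 1.16 (adjusted p = 4.2e-07). With the mean of the 3 probe sets the difference at 48 h was -0.48 (adjusted p = 6.9e-06). Which transcripts these probe sets measure was not tested.

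Across all 58 probe sets of the 30 genes, 23 were lower at 6 h, 39 at 48 h and 33 at 48 h against 6 h, and 1, 3 and 5 were higher. Of all probe sets, 12.5%, 20.2% and 18.4% were lower. The shares of all probe sets that were higher were not computed, so the counts of higher probe sets have no background here. The 4 probe sets of POLR1B were all lower at both times, with differences at 48 h from -1.5 to -0.36, and the 3 of POLR1A were all lower at 48 h, from -1.69 to -0.89. The 3 probe sets of WDR12 had near-equal falls at 48 h, from -1.52 to -1.46. NOP16 and RRP12 each had further probe sets with a mean log2 signal under 5.5 that did not pass at 48 h, and with the mean over all their probe sets their differences were -0.96 and -0.23. PES1 and NCL each had another probe set with a mean signal under 5.5, which did not pass at 48 h. RRP1B had a further probe set at 0.16 (adjusted p = 0.17), and its mean over probe sets was -0.35. A probe set of NOLC1 was higher at 48 h by 0.24 (adjusted p = 0.021).

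**Figure D3:**
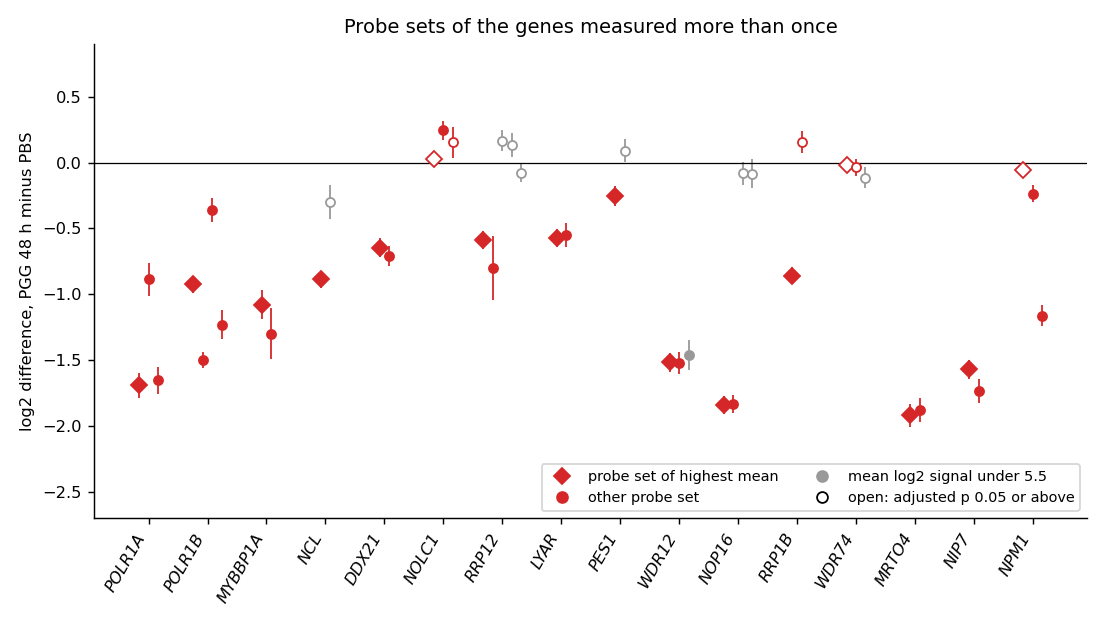
Log2 difference at 48 h against PBS (y axis) for every probe set of the genes with more than 1 probe set, with standard errors as bars, diamonds for the probe set of highest mean, grey for a mean log2 signal under 5.5 and open symbols for adjusted p of 0.05 or above. The probe sets of POLR1A, POLR1B, WDR12, MRTO4 and NIP7 all lie below 0, and the 3 of NPM1 spread from -0.05 to -1.16.

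The E-box can be set beside these values. No promoter entry was found for the measured genes NOP58, NOLC1, RRP12, RRP1B and RRS1, of which RRS1 had the largest fall of the list. Among the 25 measured genes with a promoter entry, 16 held the motif (64.00%). Of the 20 that were lower at 48 h, 14 held it (70.00%), and of the other 5, GAR1 and GNL2 held it and NOB1, WDR74 and NPM1 did not. POLR1A, POLR1B, NCL, WDR12, NOP16 and NIP7 were lower at 48 h with no CACGTG in the window. In the listed genes, 13 of 19 matches lay in the first 50 bases after the start (68.4%), against 312 of 2821 matches in all genes (11.1%). The list was named for MYC, whose known binding includes this motif, and so the share of promoters with a match is not independent of how the genes were listed.

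The wider pathway was described with 5 lists of other genes, 120 in all, of which 116 were measured. DDX47, EBNA1BP2, SBDS and MPHOSPH6 were not measured on a probe set of their own. In each of the 5 lists more genes were lower than higher at 48 h by limma, and with the methods' t-test this turned for the polymerase I list. At 6 h the counts in both directions were closer, and equal for the large subunit factors. The shares below stand beside 15.5% of all genes lower and 15.5% higher at 6 h, and 23.2% lower and 22.9% higher at 48 h.

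Among 13 other polymerase I subunits and factors, 5 were lower (38.5%) and 2 higher (15.4%) at 6 h, and 6 were lower (46.2%) and 3 higher (23.1%) at 48 h. The shares of higher genes were thus near those of all genes. The methods' t-test gave 2 lower and 3 higher at 48 h, with 3627 of all 19775 genes lower by that test. The largest falls at 48 h were those of the subunits POLR1F, by 1.07, and POLR1E, by 0.82. POLR1D, a subunit shared with polymerase III, rose by 0.85 at 48 h after a fall of 0.29 at 6 h, a rise that was lost with the mean of its probe sets (0.09, adjusted p = 0.14). TAF1A, a subunit of the promoter selectivity factor, rose by 0.77.

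Among 39 other small subunit factors, 11 were lower (28.2%) and 8 higher (20.5%) at 6 h, and 21 were lower (53.8%) and 6 higher (15.4%) at 48 h, the last a smaller share than that of all genes. PWP2, a processome protein, fell by 1.69 at 48 h, or by 0.59 with the mean of its probe sets. UTP18, of the same assembly, fell by 1.07 at 6 h and by 1.55 at 48 h. RIOK2, a kinase of late small subunit maturation, rose by 1.21 and by 1.37, the latter 0.33 with the mean of its probe sets (adjusted p = 6.3e-04). MPHOSPH10, a processome protein, rose by 0.48 and by 0.91.

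Among 40 other large subunit factors, 11 were lower (27.5%) and 11 higher (27.5%) at 6 h, and 25 were lower (62.5%) and 8 higher (20.0%) at 48 h, the last near the share of all genes. NOC3L, an assembly factor, fell by 0.52 and by 1.52. MDN1, a giant remodelling ATPase, fell by 1.24 at 48 h on its brightest probe set, a call lost with the mean of its probe sets (-0.09, adjusted p = 0.30). DDX24 and DDX55, RNA helicases, rose by 1.34 and by 0.96 at 48 h.

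Among 12 other snoRNP proteins and assembly factors, 4 were lower (33.3%) and 3 higher (25%) at 6 h, and 9 were lower (75%) and 2 higher (16.7%) at 48 h. RUVBL1, an ATPase of snoRNP assembly and of several chromatin complexes, fell by 2.98 at 48 h, and TCOF1, treacle, by 0.96. ZNHIT3 rose by 0.54 and SHQ1 by 0.27 at 48 h. The call of SHQ1 was lost without PBS replicate 3 (adjusted p = 0.063), and the count of 2 higher then was 1.

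Among 12 other exosome subunits and cofactors, 5 were lower (41.7%) and 2 higher (16.7%) at 6 h, and 10 were lower (83.3%) and 1 higher (8.33%) at 48 h. The share of higher genes at 6 h was near that of all genes. EXOSC8 and EXOSC4, core subunits as is EXOSC5, fell by 1.5 and by 1.43 at 48 h. DIS3, the catalytic nuclease of the complex, was the gene that rose, by 1.27.

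**Figure D4:**
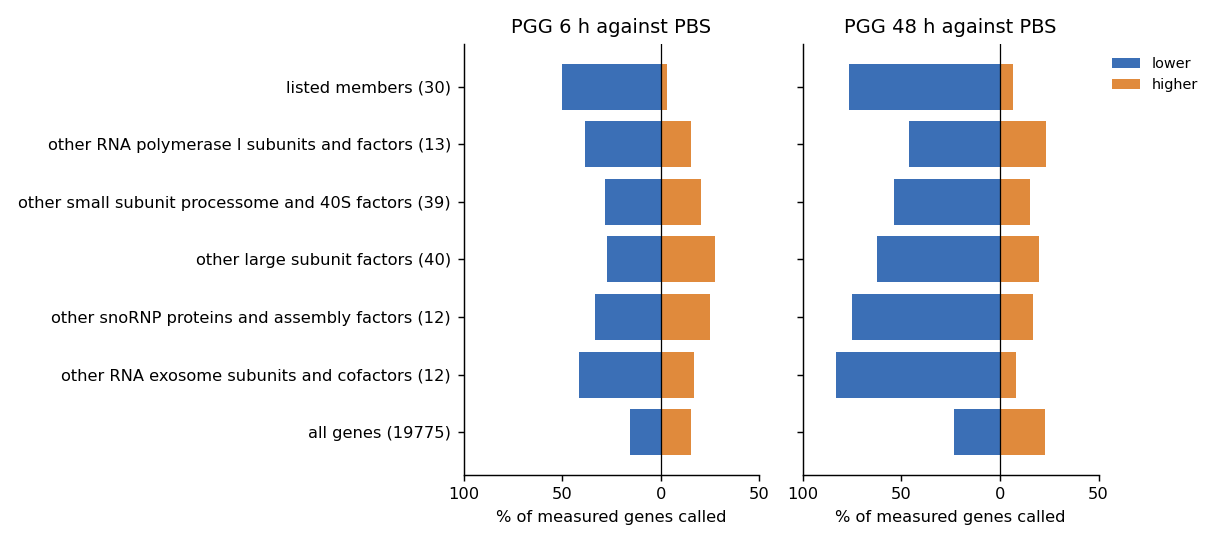
Share of the measured genes (x axis, %) that were lower (blue, to the left) or higher (orange, to the right) than PBS at adjusted p under 0.05, for the 30 listed genes, 5 lists of other pathway genes and all 19775 genes, at 6 h and 48 h, with the number measured in brackets. The blue bars of all lists exceed that of all genes at both times, with the exosome list and the listed genes longest at 48 h.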

How the data were processed

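Huh7 RNA was measured on 9 Affymetrix arrays, 3 per group, and all 9 value columns were used. The deposited log2 values per probe set came from RMA, run by the authors in Affymetrix Expression Console (tools as named in the submitters' processing notes); versions are not given in the sources used here. RMA sets all arrays to a common distribution, so a change shared by most transcripts would not show. Of 54675 probe sets, 62 were controls and 54613 were tested.

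Here, limma 3.58.1 in R 4.3.3 was run with lmFit (1 mean per group, all 9 arrays) and eBayes, for PGG 6 h against PBS, PGG 48 h against PBS and PGG 48 h against PGG 6 h. Benjamini-Hochberg adjustment ran over all tested probe sets, and a call needs an adjusted p under 0.05. Gene symbols came from the platform annotation, where 41091 tested probe sets had 1 symbol, and a gene takes the values of its probe set of highest mean. The script was tested on simulated data. Arrays give no counts, so their number limits the precision.

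The study used a t-test with q under 0.005 and a difference beyond 1.5, and the methods' t-test was an alternative. Other alternatives were the replicate number as a block, another quantile normalization, median centring, a minimum mean of 5, the mean of all probe sets, adjustment over genes, leaving out x_at probe sets, array weights, an intensity trend, fitting the compared groups alone, and leaving out each array. The members, the lists of other pathway genes and the naming rule were chosen with earlier results of these data known. By that rule, values on each array are given for MYC, for the members with the largest called difference of each role at either time and for each member called higher, and from each list of other genes the lowest and highest called differences at 48 h are named, up to 2 in each direction. Array values of further members (MYBBP1A, NCL, BYSL, NOP14, PES1, MRTO4, NOP16 and NPM1) were added after their values were seen. Promoter sequences (RefSeq, GRCh38.p14) were searched in Python 3.11.15.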

Additional observations from a re-analysis of the deposited data

Results flagged for a closer look

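For 25 of the 30 genes the difference from PBS at 48 h differed from that at 6 h, by limma's contrast of the PGG groups (Benjamini-Hochberg adjusted p under 0.05). By the same test 22.0% of all genes were lower and 22.4% were higher at 48 h than at 6 h. Because the PBS arrays are shared, this contrast compares PGG 48 h with PGG 6 h, cultures that also differ in time in culture. The values that follow are the log2 difference at 48 h minus that at 6 h.

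Among the polymerase I and ribosomal DNA genes this value was -1.66 for POLR1A, 0.62 for POLR1B, -1.14 for MYBBP1A, -0.88 for NCL and -0.23 for DDX21. POLR1B thus had the opposite sign to the other 4, though its rise did not pass the test on all of its probe sets. Among the genes grouped under snoRNPs it was -0.27 for FBL and 0.24 for GAR1.

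Among the small subunit factors it was -0.77 for NOP14, -0.74 for RRP9, -0.26 for WDR43, -1.75 for UTP20, -0.50 for IMP4, -1.47 for BYSL and -0.35 for LYAR, and it was 0.57 for NOB1. Among the large subunit factors it was -0.37 for PES1, -0.86 for WDR12, -1.17 for NOP2, -1.32 for NOP16, -1.0 for RRP1B, -2.13 for RRS1, -1.52 for MRTO4 and -1.26 for NIP7, and it was 0.96 for GNL2. For EXOSC5 it was -0.53.

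Some of these calls were lost when an array was left out. The value of DDX21 (adjusted p = 0.033) passed the test in 4 of the 9 fits with an array left out, that of EXOSC5 (adjusted p = 0.035) in 5 and that of WDR43 (adjusted p = 0.042) in 2. GAR1 (adjusted p = 0.017) passed in 6 of 9. Among the other alternatives, the call of EXOSC5 was lost with the methods' t-test (adjusted p = 0.24) and with the compared groups alone (adjusted p = 0.075), that of GAR1 with the t-test (adjusted p = 0.058), that of DDX21 with quantile normalization (adjusted p = 0.13) and that of WDR43 with median centring (adjusted p = 0.059). Without PGG 48 h replicate 2 the value of EXOSC5 was -0.27 (adjusted p = 0.020). With the mean of all probe sets, the value of PES1 was -0.11 (adjusted p = 0.10), which did not pass.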

How the results depend on the processing

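Of the 16 genes called at 6 h, 11 were called under all of the alternatives and with each array left out, and the other 5 (GAR1, RRP12, NOB1, LYAR and GNL2) were lost in some. Of the 25 called at 48 h, 23 were called under all of them, and PES1 and EXOSC5 were lost in some. Over the alternatives at the same threshold, the count of lower genes ran from 14 to 16 at 6 h, from 21 to 23 at 48 h and from 20 to 21 for 48 h against 6 h. With an array left out it ran from 12 to 16, from 22 to 23 and from 18 to 21, and the count of higher genes from 0 to 1 at 6 h, at 2 throughout at 48 h and from 3 to 4 between the times.

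At the threshold of the study the counts of lower genes were 1 at 6 h, 8 at 48 h and 4 for 48 h against 6 h, and 0 genes were higher at 6 h, at 48 h or between the times by limma. Of all genes, 0.541% were lower at 6 h and 2.12% at 48 h. For 48 h against 6 h this share was not computed by limma. The methods' t-test gave 4 lower genes there, against 283 of all 19775 genes. The single higher gene at 6 h, NOB1, was not called with the replicate block, the methods' t-test or the compared groups alone, which gave 0 higher genes. At an unadjusted p under 0.05 the replicate block and the compared groups each gave 1 and the t-test 3 (NOB1, PES1 and RRP1B). It was also lost without PBS replicate 2 or 3, any PGG 6 h replicate or PGG 48 h replicate 3. Same-numbered arrays of different groups correlated in their deviations from the group means by -0.09 to 0.16, so that the numbers were not taken as pairs. With the replicate block 15 genes were lower and 0 higher at 6 h, and 23 were lower and 2 higher at 48 h.

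Signs turned mostly for small differences. With the mean of all probe sets MYBBP1A at 6 h was -0.21, NCL at 6 h 0.10, NOLC1 between the times 0.0089, WDR74 between the times -0.019, NPM1 between the times -0.43 and MDN1 at 6 h 0.11. The value of NPM1 passed the test with that mean (adjusted p = 2.2e-05), though not on its probe set of highest mean. With quantile normalization NOP58 at 48 h was 0.032, GAR1 at 48 h -0.032, NOLC1 at 6 h -0.015 and between the times 0.056, WDR74 between the times -0.028 and ZNHIT3 at 6 h 0.0046. With median centring NOLC1 between the times was 0.013 and WDR74 at 48 h 0.0033. With array weights MYBBP1A at 6 h was -0.0088, NOP58 at 48 h 0.0011, GAR1 at 48 h -0.0002, NOLC1 between the times 0.0052 and WDR74 at 48 h 0.0009.

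With an array left out, values at 6 h ran from -0.088 to 0.14 for MYBBP1A, -0.028 to 0.012 for NCL, -0.105 to 0.020 for RRP9, -0.010 to 0.070 for BYSL, -0.047 to 0.0033 for WDR74, -0.058 to 0.15 for TCOF1 and -0.045 to 0.028 for ZNHIT3. At 48 h they ran from -0.070 to 0.0050 for NOP58, -0.033 to 0.032 for GAR1 and -0.047 to 0.013 for WDR74, and between the times from -0.023 to 0.032 for NOLC1, -0.023 to 0.040 for WDR74 and -0.025 to 0.035 for NPM1. The cause of these changes was not tested. Counts of higher genes in the other lists moved most at 6 h, from 1 to 4 for polymerase I factors (2 reported), down to 5 for small subunit factors (8 reported, mean of all probe sets) and down to 1 for snoRNP factors (3 reported, without PBS replicate 1 or PGG 6 h replicate 3).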
